A study of Mus musculus with 74 samples.

Results

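The genes of glycolysis and of the fate of pyruvate were followed through RNA-seq of mouse embryonic stem (ES) cells that lost LIF or gained or lost Nanog. The group was a fixed list of 31 genes with Pkm2, the symbol under which the tables hold muscle pyruvate kinase, and its 32 genes were all found among the 37620 genes of the tables. It was defined by function and by no threshold on measured values, with earlier results of these data known, and all 32 passed the filter on low counts in each comparison. The series holds 74 samples, of which the 35 RNA-seq libraries of the tables were used. Wild-type cells in 2i, ChIP-seq and ATAC-seq were not analysed here. All cells derive from E14Tg2a and grew in fetal calf serum (FCS) on gelatine.

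The SunTag cells carry a Dox-inducible CRISPR activator, a dead Cas9 that gathers copies of VP64, and a guide RNA that brings it to the endogenous Nanog promoter (Nanog SunTag) or guide RNAs for both the Nanog and the Otx2 promoters (Nanog/Otx2 SunTag). They were kept for 3 days with LIF (10 ng/mL) or without it, and with Dox (1 µg/mL) or without it. Libraries are named by SunTag clone, C1 or C2, and replicate, so that each line rests on 2 clones. Per the study's methods, Nanog/Otx2 SunTag cells were made by adding the Otx2 guide to the Nanog SunTag cells of C1 and C2. Nanog SunTag cells gave 3 libraries with LIF and without Dox, 2 with LIF and Dox, 3 without both and 3 with Dox alone. Nanog/Otx2 SunTag cells gave 3, 4, 4 and 4 libraries in the same order. The 44iN cells lack endogenous Nanog and carry a Nanog transgene that depends on Dox. They grew in LIF with Dox (2 libraries), for 24 h after its removal (2 libraries) or long-term without it (2 libraries), and wild-type Tg2a cells grew in FCS and LIF (3 libraries). Per the study's methods, long-term culture of 44iN cells without Nanog was under G418 selection.

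Glycolysis turns glucose into pyruvate in the cytosol. Glucose enters through transporters, is trapped by hexokinase and is committed to the pathway by phosphofructokinase, the step at which flux is mainly set. Pyruvate is then reduced to lactate, which leaves through monocarboxylate transporters, or enters the mitochondrion, where pyruvate dehydrogenase turns it into acetyl-CoA unless pyruvate dehydrogenase kinases switch that enzyme off. Naive ES cells are known to use both routes, and primed epiblast cells to rely more on glycolysis.

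Promoters of 4 genes that moved on LIF withdrawal in both lines are shown, Pfkp and Ldhb as genes that fell and Slc16a3 and Ldha as genes that rose. They are the 250 bases before the first start that RefSeq lists on GRCm38.p6, written 5′ to 3′ on the gene's own strand. Capitals mark ACGTG on either strand, the core of the hypoxia response element, and CACGTG, the E-box that contains it.
Pfkp promoter, chr13:6648772-6649021, minus strand: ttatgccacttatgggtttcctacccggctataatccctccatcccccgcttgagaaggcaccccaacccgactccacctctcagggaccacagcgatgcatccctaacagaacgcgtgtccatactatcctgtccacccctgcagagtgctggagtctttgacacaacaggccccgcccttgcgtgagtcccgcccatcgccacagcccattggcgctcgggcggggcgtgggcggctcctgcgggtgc
Ldhb promoter, chr6:142507958-142508207, minus strand: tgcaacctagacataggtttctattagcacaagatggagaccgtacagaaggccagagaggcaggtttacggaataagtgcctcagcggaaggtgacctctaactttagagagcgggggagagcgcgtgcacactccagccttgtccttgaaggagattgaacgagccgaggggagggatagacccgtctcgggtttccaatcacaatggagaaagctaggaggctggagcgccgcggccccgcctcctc
Slc16a3 promoter, chr11:120948817-120949066, plus strand: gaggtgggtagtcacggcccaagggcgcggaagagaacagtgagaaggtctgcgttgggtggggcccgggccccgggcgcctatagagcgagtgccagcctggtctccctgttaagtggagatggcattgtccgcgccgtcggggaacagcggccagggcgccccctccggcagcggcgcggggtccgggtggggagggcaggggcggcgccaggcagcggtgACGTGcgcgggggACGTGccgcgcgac
Ldha promoter, chr7:46845554-46845803, plus strand: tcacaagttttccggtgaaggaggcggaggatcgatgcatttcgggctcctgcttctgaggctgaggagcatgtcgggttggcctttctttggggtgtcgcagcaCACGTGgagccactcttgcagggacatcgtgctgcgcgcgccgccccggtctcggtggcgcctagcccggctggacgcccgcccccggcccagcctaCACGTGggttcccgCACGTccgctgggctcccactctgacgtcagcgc

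RefSeq promoters were matched for 31 of the 32 genes, and Slc2a3 had no entry. ACGTG stood in a listed promoter of 15 of these 31 genes (48.4%) and of 18.5% of 27025 genes, and CACGTG in 6 of 31 (19.4%) and 6.86%. In the windows shown, Pfkp and Ldhb held neither, Slc16a3 held 2 matches of ACGTG and Ldha held 3 matches, of which 2 were CACGTG. Of the other genes that fell in both lines, Hk2 held 2 matches of ACGTG and Pdhb 1, and Hk1, Pdk4 and Pdha1 held none in any listed window. A match is a run of letters and no measure of binding.

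Total estimated counts ran from 6107512 to 92244655 per library, with a median of 29298745. Nanog stood at 31697 to 93813 normalised counts (estimated counts divided by 1 size factor per library) in the SunTag libraries with Dox and at 1974 to 29487 in those without. Long-term 44iN cells without Dox held 228 and 276. The summed level of 8 ES cell markers fell from 166606 to 177205 with LIF to 43107 to 52190 without it in uninduced Nanog SunTag cells, and from 182830 to 209489 to 71173 to 89746 in Nanog/Otx2 SunTag cells. That of 5 primed epiblast markers rose from 3564 to 7064 to 68280 to 80733 in the former and from 4416 to 11830 to 84589 to 94065 in the latter, and Fgf5 was at 0 in 1 uninduced library with LIF of each line. Summed endoderm markers stayed at 437 or less in all SunTag libraries (all 4 tested fell on LIF withdrawal in Nanog SunTag cells, 0 of 5 in Nanog/Otx2 SunTag cells). On LIF withdrawal 2 of 4 and 2 of 3 mesoderm markers tested rose in the respective lines, as did 1 and 2 of 4 neural, 2 and 2 of 3 trophoblast and 2 and 3 of 5 fibroblast markers, and 1 of each list but the trophoblast list fell. Summed fibroblast markers nevertheless fell, from 2496 to 3966 to 1063 to 1687 in Nanog SunTag cells and from 2257 to 3541 to 1015 to 1412 in Nanog/Otx2 SunTag cells. Mesoderm and trophoblast sums rose without overlap in both lines, and neural sums overlapped. The part of these changes of cell state in the results below was not tested. The RNA came from whole cultures, in which fewer cells of a type and less RNA of a gene per cell cannot be told apart. No source states that libraries of the same clone are separate cultures, so p-values measure the spread between these libraries, which may be technical.

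In uninduced cells with LIF the genes spanned more than 3 orders of magnitude. Per kilobase of exon, Pkm2, the last step of glycolysis, was the highest of the 32, with a mean level of 37400 normalised counts in Nanog SunTag cells and 60900 in Nanog/Otx2 SunTag cells. Pgam1, Gapdh, Ldha, Pgk1 and Aldoa followed, between 15800 and 22800 in both lines. Eno1 was at 6600 and 9090, a level that is uncertain, since its near-identical copy Gm5506 (8812 to 139482 normalised counts over the libraries) may share reads with it. Of the isozymes, Hk2 was at 1900 and 2010 per kilobase against 229 and 192 for Hk1, and Ldha at 16500 and 22800 against 6990 and 6130 for Ldhb. Of the phosphofructokinases, Pfkl was at 1820 and 2970, Pfkp at 1460 and 1430 and Pfkm at 368 and 335. The lowest were Eno2, the neuronal enolase, at 26.9 and 17.7, and Pfkfb4, a bifunctional enzyme that sets fructose-2,6-bisphosphate, at 12.5 and 16.2.

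On LIF withdrawal Ldhb fell and Ldha rose in both lines, and in Nanog/Otx2 SunTag cells Pfkp fell while Pfkl and Pfkm rose. In uninduced Nanog SunTag cells 10 of the 32 genes fell and 4 rose, with 21.3% and 20.2% of the 15624 genes tested called lower and higher. In Nanog/Otx2 SunTag cells 7 fell and 7 rose, against 25.2% and 24.6% of 15609 genes. In each line 14 of the 32 were called in either direction, a share near that of all genes. The median log2 fold change of the group was -0.12 and 0.09, beside -0.05 and -0.01 over all genes. Pfkp, Hk1, Pdk4, Ldhb, Hk2, Pdhb and Pdha1 fell in both lines and Slc16a3 and Ldha rose in both. The lines share no library but come from the same clones C1 and C2, so they are not independent. Their log2 fold changes over the 32 genes correlated with Pearson r = 0.898 and Spearman rho = 0.85, and 23 had the same sign. The correlation over all genes was not computed. C1 and C2 were unequally split between the uninduced Nanog SunTag libraries with and without LIF, and the main fit held no clone term. With the clone or replicate as a block, 11 fell and 7 rose in Nanog SunTag cells (23.5% and 22.8% of all genes). In Nanog/Otx2 SunTag cells 9 fell and 12 rose (31.6% and 30.1%).

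**Figure D1:**
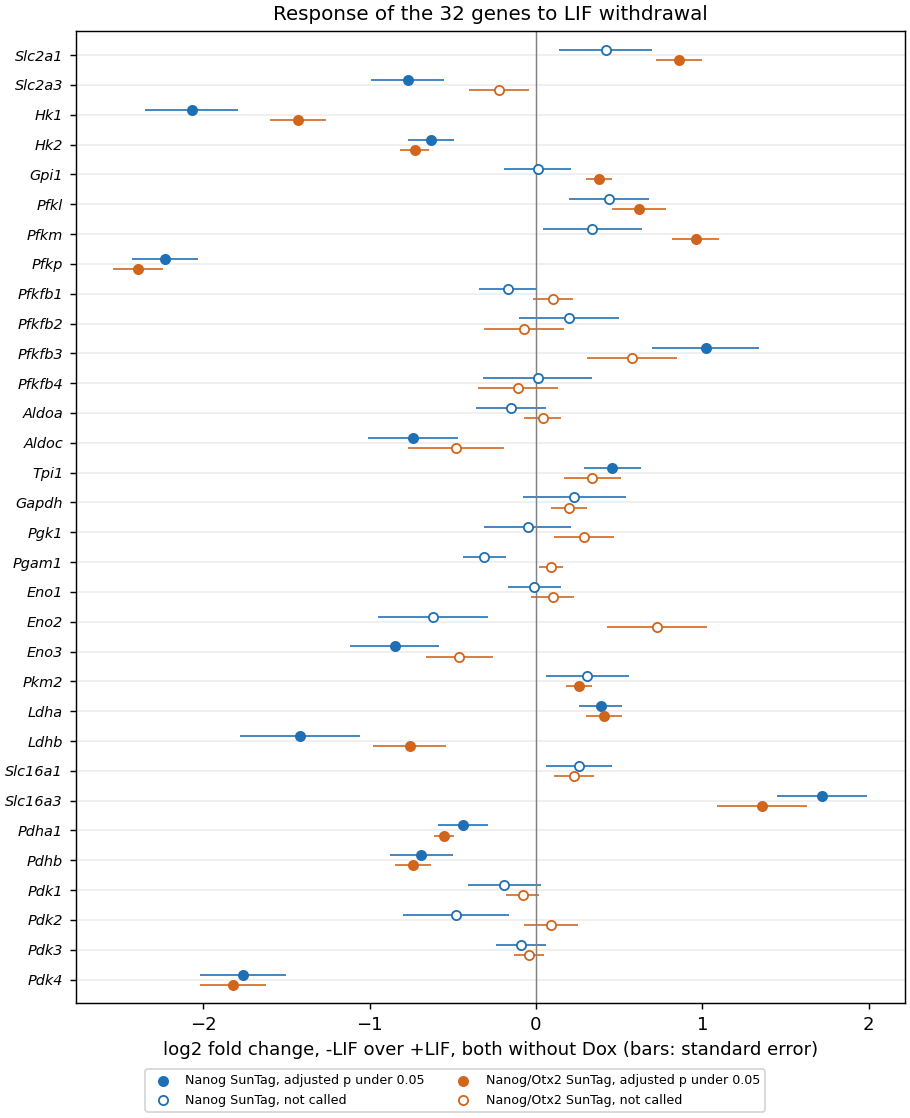
Log2 fold change of each of the 32 genes on LIF withdrawal without Dox (x axis), with Nanog SunTag in blue and Nanog/Otx2 SunTag in orange, ordered along the pathway (y axis); bars are standard errors and filled points had an adjusted p under 0.05. Pfkp stands farthest to the left in both lines, at -2.23 and -2.39, and Slc16a3 farthest to the right, at 1.72 and 1.36.

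Pfkp (mm9, chromosome 13, 6579014 to 6648023, minus strand) encodes the platelet-type phosphofructokinase, and its promoter is the first of those shown. With LIF and without Dox it was at 13857, 15668 and 11495 normalised counts in Nanog SunTag libraries C1-1, C2-1 and C2-2, and without LIF at 3350, 3123 and 2363 in C1-1, C1-2 and C2-1. Libraries of Nanog/Otx2 SunTag cells were at 14578, 13305 and 12522 with LIF and at 3062, 2887, 1827 and 2708 without. The groups lay far apart in both lines, and no library without LIF came near the lowest library with it. Pfkp fell by 2.23 on the log2 scale in Nanog SunTag cells (standard error 0.2, adjusted p = 1.1e-05), which is 4.7-fold lower. The fall in Nanog/Otx2 SunTag cells was 5.26-fold (log2 fold change -2.39, standard error 0.15, adjusted p = 1.1e-08). Its call held under each alternative run in both lines.

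The other phosphofructokinases were not called lower in either line. Pfkl, the liver type, stood at 5219, 11001 and 7736 with LIF and at 12416, 9325 and 11001 without it in Nanog SunTag cells, and the groups overlapped (log2 fold change 0.44, adjusted p = 0.16). It rose 1.54-fold in Nanog/Otx2 SunTag cells (log2 fold change 0.62, standard error 0.16, adjusted p = 0.0039). Pfkm, the muscle type, rose 1.95-fold there (0.96, standard error 0.14, adjusted p = 5.7e-05), from 897, 990 and 1180 to 2044, 1775, 2241 and 2016. The Nanog SunTag value was 0.34 (standard error 0.3, adjusted p = 0.4), and with the block 0.58 (adjusted p = 0.029). The library of Nanog SunTag C1-1 with LIF was the lowest of its group for both, at 5219 and 629. Its counts fell with GC content, with a log2 difference between the most GC-rich and the most GC-poor 10% of genes of -0.855 against 0.71 and 0.875 in the other libraries of its group, and the part of this in the result was not tested.

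Of the enzymes that make and remove fructose-2,6-bisphosphate, the activator of phosphofructokinase, Pfkfb3 rose 2.03-fold in Nanog SunTag cells (log2 fold change 1.02, standard error 0.32, adjusted p = 0.023). It lay at 1312, 1279 and 715 with LIF and at 2196, 2951 and 1662 without, and in Nanog/Otx2 SunTag cells the log2 fold change was 0.58 (adjusted p = 0.088). The call in Nanog SunTag cells was lost without C2-2 with LIF (0.79, adjusted p = 0.079), or C1-1 (1.05, adjusted p = 0.05) or C1-2 (0.81, adjusted p = 0.094) without LIF. Pfkfb1, Pfkfb2 and Pfkfb4 had log2 fold changes between -0.17 and 0.2 in both lines, with adjusted p-values of at least 0.44.

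Both hexokinases fell. Hk1 (chromosome 10, 61731603 to 61842656, minus strand) was at 1023, 2439 and 2396 normalised counts with LIF in Nanog SunTag cells and at 506, 423 and 481 without. Nanog/Otx2 SunTag libraries were at 1286, 1404 and 2217 and then at 700, 646, 540 and 569. Library C1-1 with LIF was the lowest of its group but still above each library without LIF. The Nanog SunTag call held in 18 of 18 alternatives, which include the block by clone, with log2 fold changes from -2.35 to -1.83. The fall was 4.19-fold in Nanog SunTag cells (-2.07, standard error 0.28, adjusted p = 0.00018) and 2.69-fold in Nanog/Otx2 SunTag cells (-1.43, standard error 0.17, adjusted p = 9.1e-06). Hk2, the more abundant form, fell by 0.63 and 0.73 on the log2 scale (standard errors 0.14 and 0.09, adjusted p = 0.0044 and 1.4e-05), with 10196 to 12775 counts with LIF and 6663 to 8340 without across both lines.

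Of the glucose transporters, without the block Slc2a1 was called, as higher, only in Nanog/Otx2 SunTag cells, and Slc2a3, as lower, only in Nanog SunTag cells. Slc2a1, the broadly expressed transporter, was at 10604, 13416 and 15897 with LIF in Nanog/Otx2 SunTag cells and at 24570, 23868, 22397 and 27729 without. No libraries overlapped and the rise was 1.81-fold (0.86, standard error 0.14, adjusted p = 0.00014). Nanog SunTag cells gave 0.42 (standard error 0.28, adjusted p = 0.25) and 0.63 with the block (adjusted p = 0.026). Slc2a3, a transporter of high affinity, fell 1.7-fold in Nanog SunTag cells (-0.77, standard error 0.22, adjusted p = 0.014), from 36326, 25641 and 20941 to 19599, 15412 and 14407. Its value in Nanog/Otx2 SunTag cells was -0.22 (standard error 0.18, adjusted p = 0.34) and the groups overlapped. The call in Nanog SunTag cells was lost without C1-2 (-0.7, adjusted p = 0.059) or C2-1 (-0.66, adjusted p = 0.059) of the libraries without LIF.

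In the middle of the pathway changes were small. Gpi1, which isomerises glucose-6-phosphate, rose 1.3-fold in Nanog/Otx2 SunTag cells (0.38, standard error 0.08, adjusted p = 0.00089) and was at 0.01 in Nanog SunTag cells (adjusted p = 0.97). Tpi1, triose phosphate isomerase, rose in Nanog SunTag cells (0.46, adjusted p = 0.042) although its groups overlapped, and was at 0.34 in Nanog/Otx2 SunTag cells (adjusted p = 0.11; 0.39 and 0.00038 with the block). The call of Tpi1 was lost without C1-1 (0.42) or C2-2 (0.4) with LIF, C1-1 (0.37) or C2-1 (0.47) without LIF and Dox, or C1-1b with Dox alone (0.48), with adjusted p-values of 0.055 to 0.16. The main aldolase Aldoa, Gapdh, Pgk1, Pgam1 and the main enolase Eno1 had log2 fold changes between -0.31 and 0.29 in both lines and none was called. With the block, Pgam1 was called lower in Nanog SunTag cells (-0.34, adjusted p = 0.043) and Pgk1 higher in Nanog/Otx2 SunTag cells (0.35, adjusted p = 0.00065). Eno1 and Pgk1 are uncertain, since their near-identical copies Gm5506 (8812 to 139482 normalised counts over the libraries) and Pgk1-rs7 (63.4 to 4511) may share reads with them.

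The minor isozymes of these steps fell in Nanog SunTag cells. Eno3, the muscle enolase, was at 354, 580 and 513 with LIF and at 294, 194 and 321 without (-0.85, standard error 0.27, adjusted p = 0.027). Its call was lost without C2-1 (-0.71) or C2-2 (-0.81) with LIF, or C1-1 (-0.92) or C1-2 (-0.66) without LIF, with adjusted p-values of 0.055 to 0.11. Aldoc, the brain aldolase, was at 699, 848 and 587 and at 578, 358 and 354 (-0.74, standard error 0.27, adjusted p = 0.047), a call that held in 6 of 18 alternatives. Without the block, Nanog/Otx2 SunTag cells had Eno3 at -0.46 (adjusted p = 0.067) and Aldoc at -0.48 (adjusted p = 0.19), and with the block both were called, at -0.44 (adjusted p = 0.011) and -0.41 (adjusted p = 0.015). Eno2 had a log2 fold change of -0.62 in Nanog SunTag cells (adjusted p = 0.15) and 0.73 in Nanog/Otx2 SunTag cells (adjusted p = 0.055; 0.8 and 0.0076 with the block).

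At the end of the pathway, the lactate genes split. Ldha, the subunit that favours lactate, was at 44846, 55052 and 47447 normalised counts with LIF in Nanog SunTag cells and at 70880, 57788 and 67191 without, with no overlap. It rose 1.31-fold (0.39, standard error 0.13, adjusted p = 0.033) and 1.32-fold in Nanog/Otx2 SunTag cells (0.41, standard error 0.11, adjusted p = 0.0058). The Nanog SunTag call was lost without C2-2 with LIF (0.37, adjusted p = 0.091), or C1-1 (0.34, adjusted p = 0.12) or C2-1 (0.39, adjusted p = 0.078) without LIF. Pkm2 rose 1.2-fold in Nanog/Otx2 SunTag cells (0.26, standard error 0.08, adjusted p = 0.011) and was at 0.31 in Nanog SunTag cells (standard error 0.25, adjusted p = 0.33; 0.52 and 0.047 with the block).

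Ldhb (chromosome 6, 142438769 to 142456477, minus strand), the subunit that favours pyruvate, was at 4707, 12577 and 15620 with LIF in Nanog SunTag C1-1, C2-1 and C2-2. Without LIF it was at 3608 and 3453 in C1 and at 5352 in C2. C1-1 with LIF thus lay below the C2 library without LIF, though above both C1 libraries without it. The fall was 2.67-fold (-1.42, standard error 0.36, adjusted p = 0.0082) in a fit without a clone term, so that it mixes clone with LIF. Its call held in 18 of 18 alternatives, which include the block by clone, with log2 fold changes from -1.76 to -1.0. Ldhb fell 1.7-fold in Nanog/Otx2 SunTag cells (-0.76, standard error 0.22, adjusted p = 0.0084), from 9981, 6789 and 12101 to 4907, 4893, 6575 and 6782. That call was lost without the library of C2-1 with LIF (-0.56, adjusted p = 0.056).

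Slc16a3 (chromosome 11, 120809794 to 120822182, plus strand) encodes the monocarboxylate transporter MCT4, which exports lactate. Nanog SunTag libraries were at 1224, 1998 and 1085 normalised counts with LIF and at 5314, 4668 and 4316 without. Those of Nanog/Otx2 SunTag cells were at 3596, 3956 and 2523 and then at 10939, 10714, 6501 and 7390. The groups did not overlap in either line, and the C1 libraries of Nanog/Otx2 SunTag cells were above those of C2 in both conditions. Slc16a3 rose 3.28-fold (1.72, standard error 0.27, adjusted p = 0.00046) and 2.57-fold (1.36, standard error 0.27, adjusted p = 0.00078). Slc16a1, which encodes MCT1, was at 0.26 and 0.23 (adjusted p = 0.31 and 0.11; in Nanog/Otx2 SunTag cells 0.27 and 0.0047 with the block).

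Both genes of the E1 enzyme of pyruvate dehydrogenase fell. Pdhb, its beta subunit, was at 5254, 4068 and 4606 with LIF in Nanog SunTag cells and at 3003, 3070 and 2661 without, and at 6263, 5738 and 4402 and then 3450, 3248, 3602 and 3157 in Nanog/Otx2 SunTag cells. All libraries with LIF were above those without in each line. The fall was 1.62-fold and 1.67-fold (-0.69 and -0.74, standard errors 0.19 and 0.11, adjusted p = 0.013 and 7.3e-05), and the Nanog SunTag call was lost without C2-1 lacking LIF (-0.62, adjusted p = 0.051). Pdha1, the alpha subunit, fell 1.35-fold and 1.47-fold (-0.44 and -0.55, standard errors 0.15 and 0.06, adjusted p = 0.037 and 4.2e-06), and in Nanog SunTag cells its call held in 9 of 18 alternatives.

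Pdk4 (chromosome 6, 5433351 to 5446309, minus strand), one of the kinases that switch pyruvate dehydrogenase off, fell as well. It was at 276, 184 and 201 normalised counts with LIF in Nanog SunTag cells and at 66.0, 64.6 and 66.4 without. The Nanog/Otx2 SunTag libraries were at 141, 145 and 222 and then at 53.5, 39.6, 48.3 and 46.7. The levels were low, but the groups were far apart, and the fall was 3.39-fold (-1.76, standard error 0.26, adjusted p = 0.00032) and 3.54-fold (-1.82, standard error 0.2, adjusted p = 3.1e-06). Pdk1, the most abundant kinase, Pdk2 and Pdk3 had log2 fold changes between -0.48 and 0.09 and were not called in either line.

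**Figure D2:**
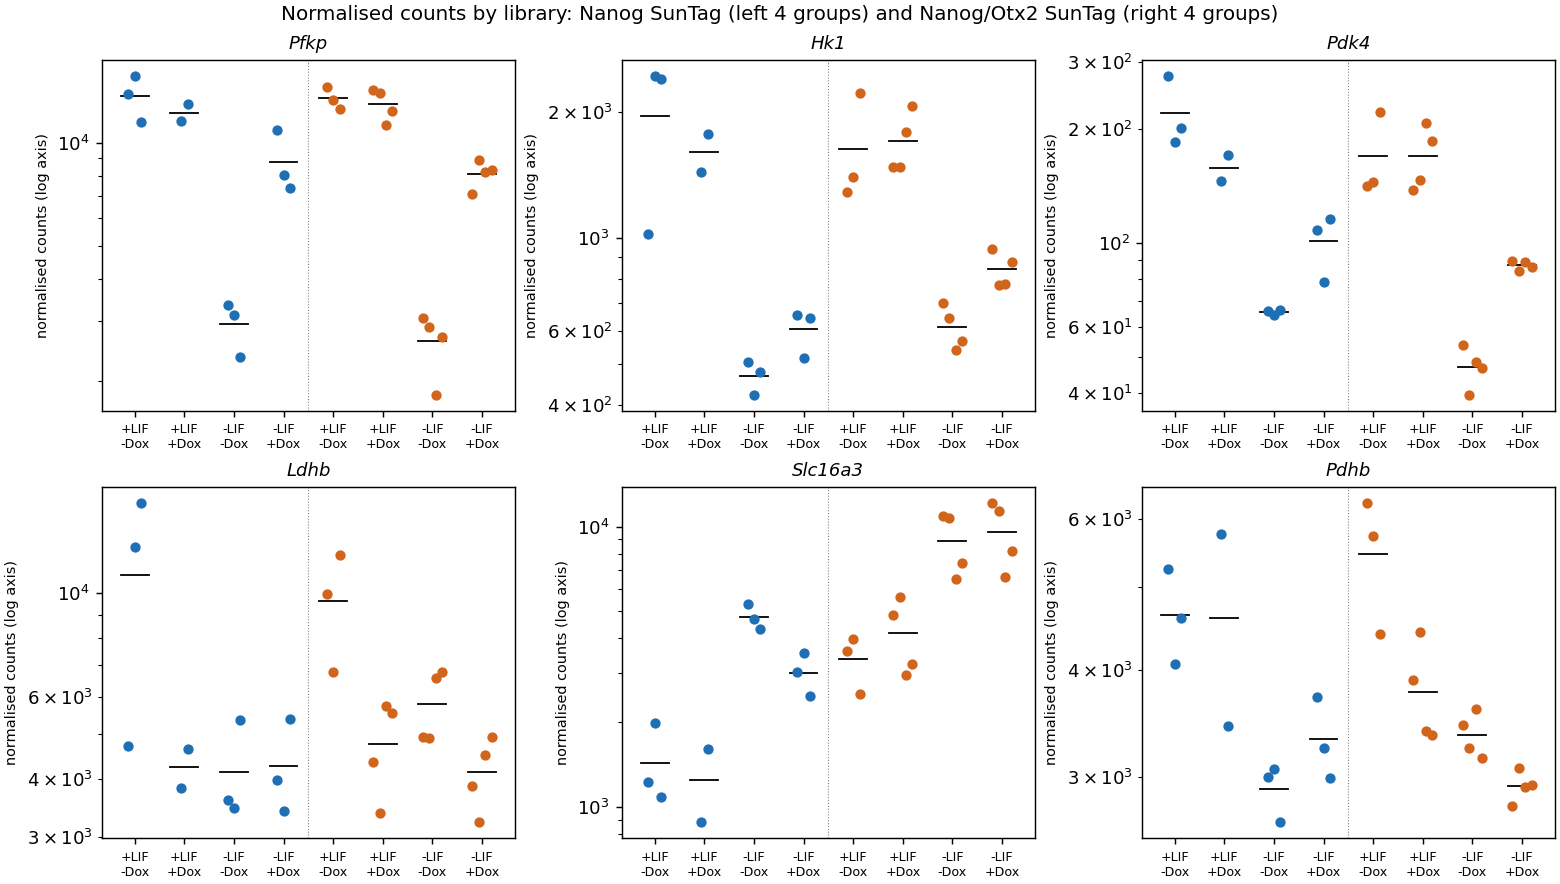
Normalised counts on a log axis of Pfkp, Hk1, Pdk4, Ldhb, Slc16a3 and Pdhb in each SunTag library (points), by guide, LIF and Dox (x axis), with the mean of each group as a line. Pfkp stood at 1827 to 3350 without LIF and Dox and at 7052 to 10871 with Dox alone, and Slc16a3 was higher without LIF than with it in both lines.

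Ratios of isozymes within a library, which do not depend on its scaling and were not tested, were as follows. They can depend on its GC trend where the genes differ in exonic GC content, as Pfkp (47.7%) and Pfkl (56.8%) or Slc16a3 (56.5%) and Slc16a1 (42.9%) do. Nanog SunTag C1-1 with LIF, whose GC trend stood apart, was the extreme of its group for Pfkp to Pfkl (2.66), Slc16a3 to Slc16a1 (0.253) and Slc2a3 to Slc2a1 (5.06). The part of this in the ratios was not tested. The median ratio of Pfkp to Pfkl counts went from 1.49 (1.42 to 2.66) to 0.27 (0.215 to 0.335) on LIF withdrawal in Nanog SunTag cells and from 1.03 (1.0 to 1.07) to 0.128 (0.103 to 0.15) in Nanog/Otx2 SunTag cells. That of Slc16a3 to Slc16a1 rose from 0.374 (0.253 to 0.692) to 1.11 (1.03 to 1.17) and from 0.776 (0.767 to 0.938) to 1.82 (1.39 to 2.21). Neither ratio overlapped between the groups with and without LIF. The ratio of Ldhb to Ldha went from 0.228 (0.105 to 0.329) to 0.0597 (0.0509 to 0.0797) and from 0.132 (0.0982 to 0.203) to 0.0636 (0.0499 to 0.0766), and that of Hk1 to Hk2 from 0.216 (0.0814 to 0.235) to 0.0688 (0.0507 to 0.0721) and from 0.12 (0.11 to 0.178) to 0.0793 (0.0746 to 0.1). Slc2a3 to Slc2a1 went from 1.96 to 1.19 and from 2.09 to 1.02, without overlap. Medians of Aldoc to Aldoa were 0.0152 and 0.0107, and 0.015 and 0.00926. Those of Pdk1 to Pdk3 were 3.99 and 3.78, and 5.46 and 5.76. Both of these ratios overlapped between the groups with and without LIF in each line. Eno2 to Eno1 went from 0.00364 to 0.00197 in Nanog SunTag cells and from 0.00173 to 0.00253, with overlap, in Nanog/Otx2 SunTag cells.

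**Figure D3:**
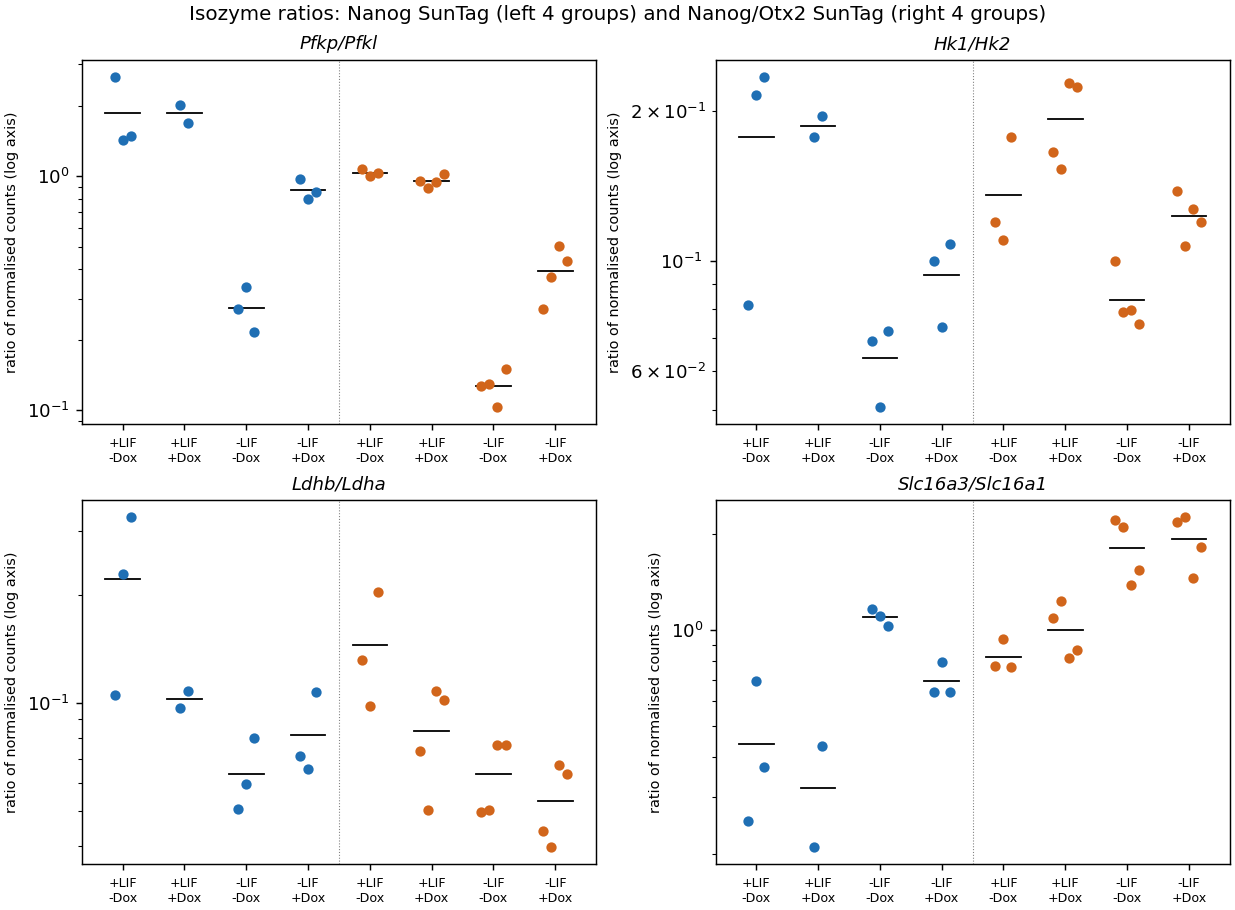
Ratio of normalised counts of a pair of isozymes in each SunTag library (points, log axis), by guide, LIF and Dox (x axis), with the group mean as a line. The ratio of Pfkp to Pfkl was at 0.103 to 0.335 without LIF and Dox, and at 0.271 to 0.969 with Dox alone.

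The summed level of the 32 genes was described and not tested. It ran from 406023 to 553953 normalised counts with LIF and from 444706 to 524502 without in uninduced Nanog SunTag cells, which overlap, at 1.39% to 1.93% and 1.47% to 1.82% of all counts. In Nanog/Otx2 SunTag cells its libraries did not overlap, at 571988 to 641814 with LIF and 652357 to 741578 without, while its share of all counts (2.02% to 2.13% and 2.11% to 2.56%) overlapped.

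Cells without LIF were next compared with and without Dox, which induces Nanog, and in Nanog/Otx2 SunTag cells Otx2 too. None of the libraries came from Dox-treated SunTag cells without a guide. Effects of Nanog, of Dox and of the activator thus cannot be told apart. Pfkp had the largest fold change of the 32 genes in both lines. In Nanog SunTag cells it rose 3.04-fold (1.6, standard error 0.19, adjusted p = 0.00089) and was the only one of the 32 genes called, with 3.6% and 1.54% of all genes called higher and lower. In Nanog/Otx2 SunTag cells it rose 3.18-fold (1.67, standard error 0.14, adjusted p = 2.9e-06) as 1 of 4 called higher and 0 lower, against 11.2% and 6.15% of all genes. Without LIF and with Dox its libraries stood at 10871, 8058 and 7365 and at 7052, 8897, 8225 and 8310. Each was above all libraries without both and below all libraries with LIF of the same line. Cell state markers moved in the same comparison. Of 8 ES cell markers 5 rose and 0 fell in each line, with sums of 69819 to 80579 in Nanog SunTag cells and 94762 to 108820 in Nanog/Otx2 SunTag cells with Dox alone. Of the primed epiblast markers tested 3 of 4 fell in the former, and 2 of 5 fell and 1 rose in the latter, where Otx2, one of them, is itself a target of the guides. Their sums were 31899 to 35506 and 49761 to 58974, below all libraries without Dox. In Nanog/Otx2 SunTag cells 3 of 5 fibroblast markers rose as well (sums 1015 to 1412 without Dox and 1571 to 2214 with it). There 1 of 3 mesoderm markers rose, and of 4 neural markers 1 rose and 1 fell. Nanog SunTag cells had 1 of 4 mesoderm and 1 of 4 neural markers lower. The part of these changes in the results was not tested.

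Pdk4, Eno3 and Hk1 were the other genes called in Nanog/Otx2 SunTag cells. Pdk4 rose 1.88-fold (0.91, standard error 0.19, adjusted p = 0.0037) to 89.4, 84.1, 88.8 and 86.1 normalised counts, all above the 39.6 to 53.5 without Dox. Eno3 rose 1.7-fold (0.76, standard error 0.18, adjusted p = 0.01) to 773, 970, 632 and 779 from 556, 502, 349 and 496. Hk1 rose 1.41-fold (0.49, standard error 0.16, adjusted p = 0.048) to 944, 774, 779 and 875, all above the 540 to 700 without Dox, and its call held in 9 of 23 alternatives. In Nanog SunTag cells the log2 fold changes of Pdk4, Eno3 and Hk1 were 0.65 (adjusted p = 0.19), 0.73 (adjusted p = 0.17) and 0.4 (adjusted p = 0.5).

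With the replicate as a block, 8 genes were higher and 3 lower with Dox in Nanog/Otx2 SunTag cells without LIF, against 18.9% and 14.5% of all genes. Aldoc (0.81, adjusted p = 0.00019), Eno2 (0.61, adjusted p = 0.024), Pdk1 (0.24, adjusted p = 0.014) and Aldoa (0.23, adjusted p = 0.021) joined those that rose. Ldhb (-0.45, adjusted p = 0.00066), Pgk1 (-0.21, adjusted p = 0.018) and Ldha (-0.2, adjusted p = 0.018) fell. Pfkp remained the only call with the block in Nanog SunTag cells.

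Slc16a3 and the pyruvate dehydrogenase genes, which LIF withdrawal moved in both lines, were not called on Dox without LIF in either line. Slc16a3 was at -0.63 in Nanog SunTag cells (standard error 0.26, adjusted p = 0.21), where its 3022, 3526 and 2493 counts lay below all libraries without Dox, and at 0.14 in Nanog/Otx2 SunTag cells. Pdhb was at 0.22 and -0.16 and Pdha1 at 0.27 and -0.14, Hk2 at -0.16 and -0.07, and Ldhb at 0.07 and -0.45.

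**Figure D4:**
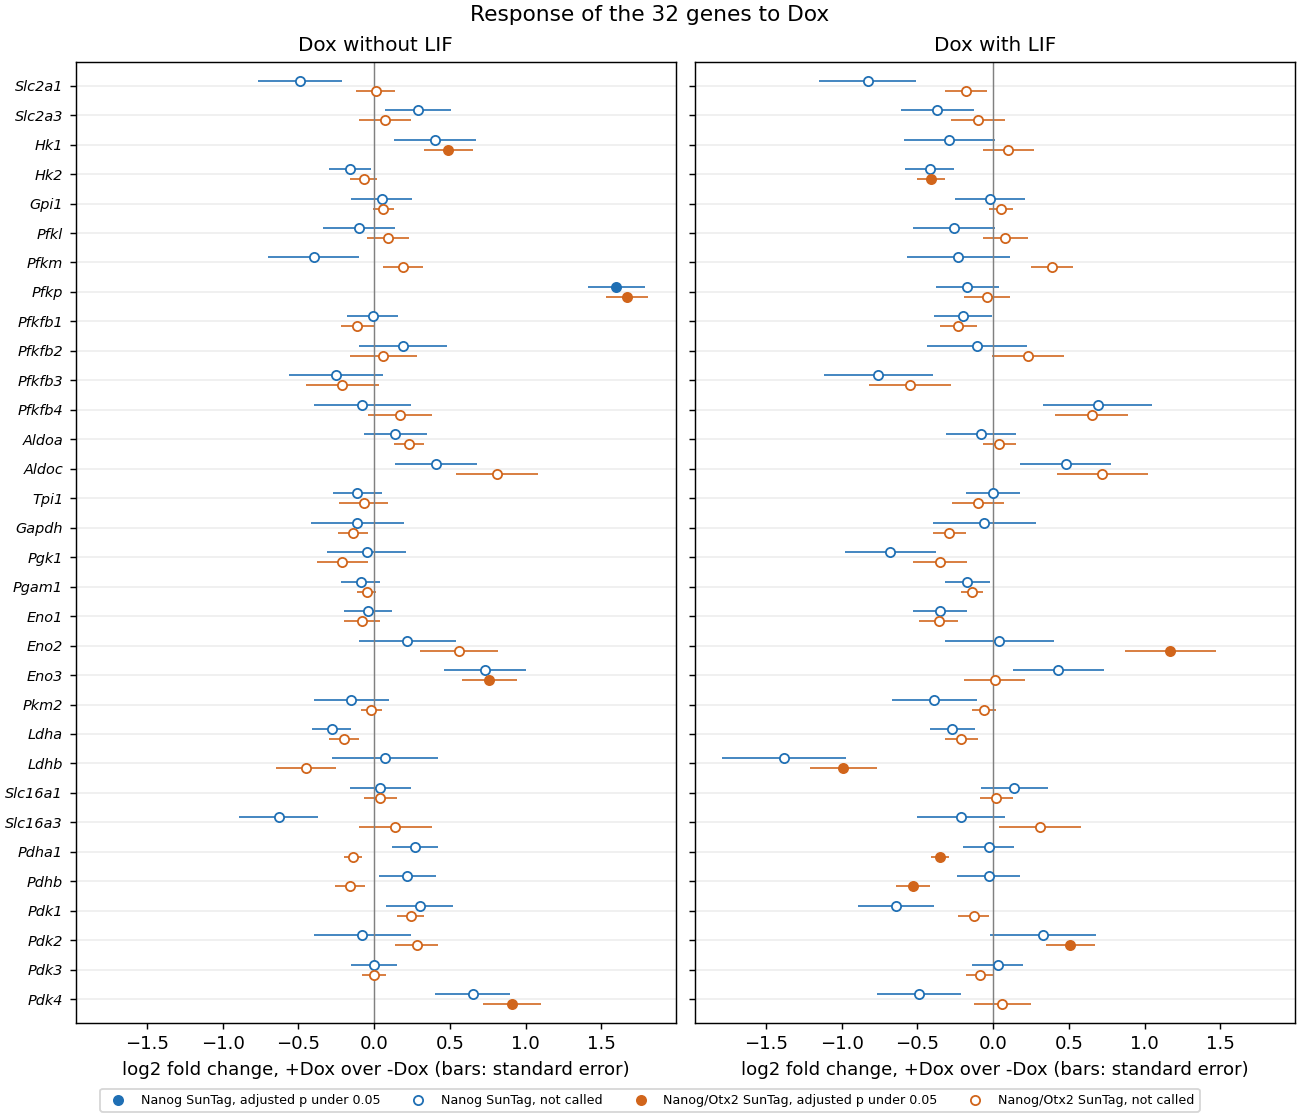
Log2 fold change of the 32 genes with Dox over without Dox (x axis), without LIF on the left and with LIF on the right, with Nanog SunTag in blue and Nanog/Otx2 SunTag in orange; bars are standard errors and filled points had an adjusted p under 0.05. Without LIF, Pfkp stands apart at 1.6 and 1.67, and with LIF it is near 0 in both lines, at -0.17 and -0.04.

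The effect of Dox was also tested with LIF present. Whether it differed from the effect without LIF is a separate test, given below. In Nanog SunTag cells none of the 32 was called by edgeR (0.422% and 0.141% of all genes were called higher and lower), 5 had an unadjusted p under 0.05, and DESeq2 called 1, Ldhb (3.76% of all genes were called by DESeq2). It had the lowest log2 fold change, at 3825 and 4641 normalised counts with Dox against 4707, 12577 and 15620 without (-1.38, standard error 0.41, adjusted p = 0.16). In Nanog/Otx2 SunTag cells 2 were higher and 4 lower, against 12.9% and 10.0% of all genes. Ldhb fell 1.99-fold (-0.99, standard error 0.22, adjusted p = 0.0048), to 4350, 3380, 5734 and 5536 from 9981, 6789 and 12101, with no overlap. Pdhb (-0.53, adjusted p = 0.0044), Hk2 (-0.41, adjusted p = 0.0066) and Pdha1 (-0.35, adjusted p = 0.0014) fell.

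Eno2 rose 2.25-fold there (1.17, standard error 0.3, adjusted p = 0.012), from 92.5, 82.7 and 74.1 to 213, 169, 200.3 and 172. The call of Eno2 was lost without C1-2 of the uninduced cells (1.16, adjusted p = 0.057). Pdk2 rose 1.43-fold (0.51, standard error 0.16, adjusted p = 0.034), a call that held in 15 of 23 alternatives. With the block, 6 were higher and 10 lower in Nanog/Otx2 SunTag cells (21.3% and 19.7% of all genes). Those called with the block only were Aldoc (0.85), Pfkfb4 (0.77), Slc16a3 (0.39) and Pfkm (0.33) as higher and Pfkfb3 (-0.61), Eno1 (-0.31), Pgk1 (-0.29), Gapdh (-0.26), Ldha (-0.19) and Pgam1 (-0.16) as lower, with adjusted p-values up to 0.043. Of the markers tested in Nanog/Otx2 SunTag cells with LIF, 1 of 8 for ES cells and 2 of 4 for neural cells fell. Those for primed epiblast (1 of 5), fibroblasts (4 of 5), trophoblast (2 of 3) and mesoderm (1 of 3) rose. Sums were 2257 to 3541 without Dox and 2553 to 3288 with it for the fibroblast list and 397 to 497 and 733 to 897 for the trophoblast list. In Nanog SunTag cells with LIF, 1 of 4 primed epiblast markers fell and 1 of 4 mesoderm and 1 of 3 trophoblast markers rose. Trophoblast sums there were 252 to 466 without Dox and 778 to 837 with it. The part of these changes in the results was not tested.

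The difference between the Dox effects without and with LIF was tested itself. In Nanog SunTag cells 1 of the 32 genes was called, Pfkp, with a difference of 1.78 on the log2 scale (standard error 0.29, adjusted p = 0.013), and 1.32% and 0.608% of all genes had a higher and a lower difference. The call was lost without the C1-1 library with LIF and Dox (1.68, adjusted p = 0.065). The same test in Nanog/Otx2 SunTag cells was added after values had been seen. Pfkp was again the single gene called, at 1.71 (standard error 0.2, adjusted p = 0.00014), against 5.15% and 4.55% of all genes. With the block 6 were called higher and 0 lower (11.1% and 10.8% of all genes), Pfkp (1.74), Pdk4 (0.86), Eno3 (0.74), Ldhb (0.63), Hk2 (0.37) and Pdk1 (0.35), with adjusted p-values up to 0.02.

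Dox in place of LIF was tested by setting Nanog SunTag cells with Dox and no LIF against cells with LIF and no Dox. Of the 32 genes 6 were lower and 1 higher, against 13.1% and 15% of all genes. Of the markers 7 of 8 for ES cells and 3 of 4 for endoderm were lower. Higher were 4 of 4 for primed epiblast, 2 of 3 for trophoblast, 1 of 4 for mesoderm and 1 of 5 for fibroblasts. Of 4 neural markers 2 were higher and 1 lower. The part of these in the result was not tested. Hk1 remained 3.19-fold lower (-1.67, standard error 0.28, adjusted p = 0.0015), at 657, 517 and 644 normalised counts, all below the lowest library with LIF. Ldhb was 2.54-fold lower (-1.35, adjusted p = 0.017) with overlap, Pdk4 2.16-fold (-1.11, adjusted p = 0.0078), Hk2 1.73-fold (-0.79, adjusted p = 0.0023), Pfkp 1.55-fold (-0.63, adjusted p = 0.029) and Pgam1 1.33-fold (-0.41, adjusted p = 0.036). Slc16a3 was 2.12-fold higher (1.08, standard error 0.26, adjusted p = 0.011). The call of Pgam1 held in 8 of 18 alternatives. That of Pfkp was lost without C2-1 with LIF (-0.53), C1-2 without LIF and Dox (-0.6), or C1-1b (-0.54) or C2-2 (-0.49) with Dox alone. That of Ldhb was lost without C2-1 (-1.24) or C2-2 (-1.0) with LIF, or C1-1 (-1.28) or C1-1b (-1.18) with Dox alone. With the block, Slc2a3 (-0.59, adjusted p = 0.019) and Pdhb (-0.58, adjusted p = 0.01) were also lower, giving 8 lower and 1 higher against 15.1% and 17.2% of all genes.

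Differences between the Nanog and the Nanog/Otx2 guides were tested over all 26 SunTag libraries. For the Dox effect without LIF, none of the 32 genes was called by edgeR, 2 had an unadjusted p under 0.05, and 0.0308% and 0.0% of 16210 genes were called higher and lower. DESeq2 called 0 of the 32 and 0.253% of all genes. The 95% interval of the difference for Pfkp was -0.45 to 0.5. For the LIF effect without Dox none was called by edgeR either, with 0.697% and 1.79% of all genes called higher and lower, and 2 had an unadjusted p under 0.05. DESeq2 called 1, Pgam1, as higher, and 1.83% and 3.45% of all genes. The difference was -0.17 for Pfkp (95% interval -0.66 to 0.33) and 0.64 for Hk1 (-0.03 to 1.31, unadjusted p = 0.06 and adjusted p = 0.31), taken as Nanog/Otx2 minus Nanog. The largest was that of Eno2, at 1.34 (0.43 to 2.26, adjusted p = 0.11). With the block, Slc2a3 (0.69, adjusted p = 0.043) and Pgam1 (0.41, adjusted p = 0.044) were called higher, against 2.1% higher and 3.78% lower over all genes.

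In 44iN cells the acute loss of Nanog was examined by setting cells with Dox against cells 24 h after its removal. Dox and Nanog change together here and cannot be told apart. None of the 32 genes was called by edgeR, with 0.0% of 14376 genes called in either direction, and 1 had an unadjusted p under 0.05. Nanog itself, whose transgene depends on Dox, was thus not called either. The edgeR test therefore cannot show that the 32 genes did not change. DESeq2 called 0 of the 32 and 0.981% of all genes. The gene with the low unadjusted p was Pfkp, at 4261 and 5479 normalised counts with Dox and 2786 and 3490 at 24 h without, with no overlap (0.73, 95% interval 0.1 to 1.37, adjusted p = 0.61). Slc16a3 was at 107 and 372 with Dox and 60.0 and 97.6 without (1.71, standard error 0.71, adjusted p = 0.72). Pdk4 was at 314 and 216 with Dox and 420 and 473 without (-0.66, adjusted p = 0.78). Replicate 2 with Dox stood apart in GC content, with a log2 difference between the most GC-rich and the most GC-poor 10% of genes of -0.963 against -3.21, -2.87 and -2.35 in the other libraries of this comparison, and the part of this in the result was not tested. Without replicate 1 with Dox, 10 of the 32 genes were called higher (13.2% of all genes), among them Gapdh (1.68), Pfkl (1.52) and Aldoa (1.44). These rest on replicate 2 alone. As no gene was called, no marker was either, and of 5 primed epiblast markers 2 were tested. Summed ES cell markers ran from 129243 to 138904 with Dox and from 159646 to 161547 at 24 h without. Primed epiblast (3246 to 4810 and 6028 to 7672) and endoderm sums (81 to 221 and 405 to 468) were also lower with Dox. Higher with Dox were mesoderm (532 to 573 and 346 to 376), neural (1225 to 1581 and 503 to 679), trophoblast (344 to 382 and 177 to 314) and fibroblast sums (2973 to 3117 and 2068 to 2234). Their part in the result was not tested.

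Long-term loss of Nanog was examined by setting 44iN cells kept without Dox against wild-type Tg2a cells. Of the 32 genes 4 were lower and 0 higher, against 5.26% and 3.35% of 14937 genes. Slc2a3 was at 20805 and 19292 normalised counts in 44iN cells and at 37365, 47367 and 42530 in Tg2a cells, which is 2.23-fold lower (-1.16, standard error 0.18, adjusted p = 0.011). Hk1 was at 386 and 405 against 599, 849 and 1022, 2.2-fold lower (-1.14, standard error 0.24, adjusted p = 0.03). Pfkp was at 5293 and 4280 against 8523, 7442 and 9603, 1.88-fold lower (-0.91, standard error 0.17, adjusted p = 0.02). Ldhb was at 1484 and 2149 against 2715, 2974 and 4112, 1.89-fold lower (-0.92, standard error 0.23, adjusted p = 0.045). None of these groups overlapped. All 4 calls were lost without either library of 44iN cells or without Tg2a replicate 2, with log2 fold changes from -1.34 to -0.7 over the alternatives. All 4 held without Tg2a replicate 3, whose difference between the most GC-rich and the most GC-poor 10% of genes was -0.574 against -2.04 and -1.65 in the other Tg2a and -1.77 and -1.64 in the 44iN libraries. Of the markers, 3 of 8 for ES cells were lower in 44iN cells (sums 115775 to 125796 against 144658 to 162447). For primed epiblast 2 of 3 were higher (14952 to 17970 against 7200 to 8683). Among the other lists, 2 of 5 fibroblast and 1 of 4 mesoderm markers were lower and 1 of 3 trophoblast markers higher. Endoderm and neural markers were not called. Endoderm sums were higher (1856 to 2839 against 1212 to 1580) and neural sums lower (902 to 1162 against 1637 to 1830). The part of these in the result was not tested. The cell lines differ in history and in G418 selection as well as in Nanog, which cannot be told apart here.

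**Figure D5:**
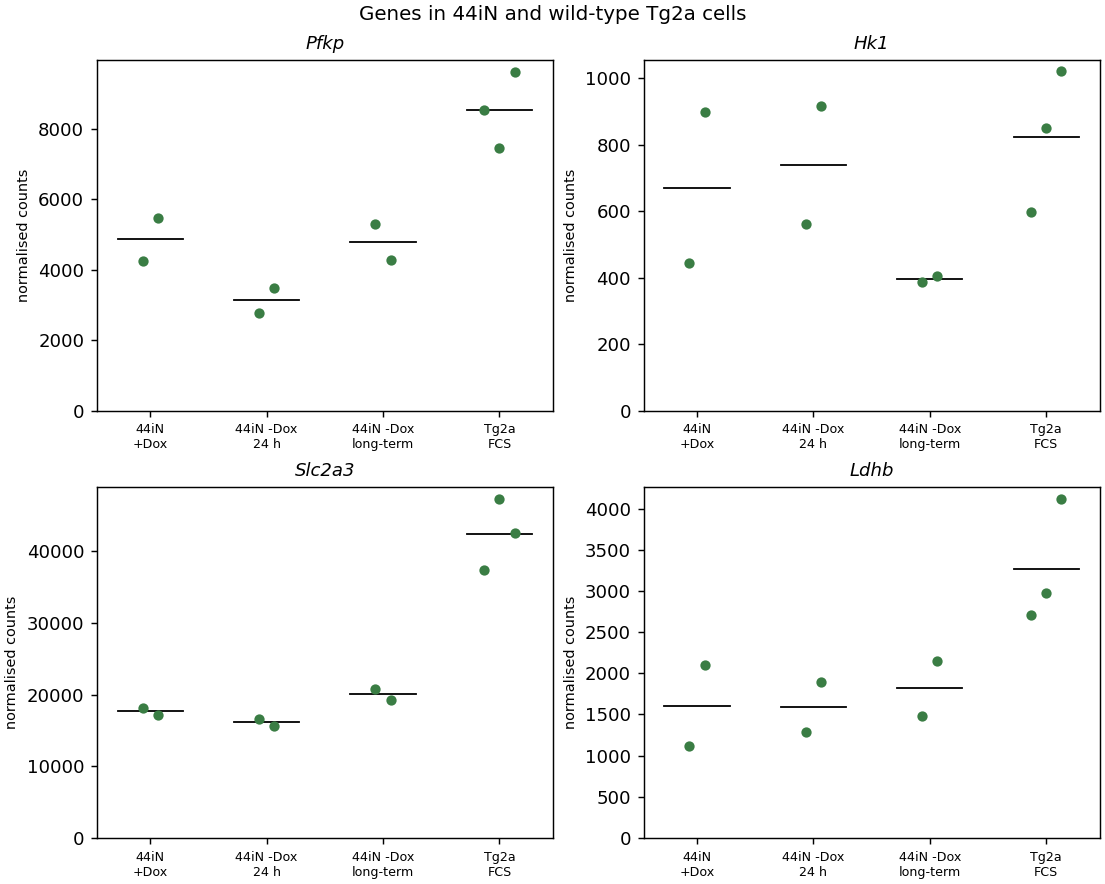
Normalised counts of Pfkp, Hk1, Slc2a3 and Ldhb in each library of 44iN and wild-type Tg2a cells (points, axis from 0), with the group mean as a line. Slc2a3 was at 19292 and 20805 in long-term 44iN cells and at 37365 to 47367 in Tg2a cells.

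Levels were not compared between the 44iN and Tg2a libraries and the SunTag libraries. Over the 32 genes, the log2 ratio of their medians fell with exonic GC content (Pearson r = -0.806, Spearman rho = -0.797, n = 32), and the library set and the cell line cannot be told apart. The difference between the most GC-rich and the most GC-poor 10% of genes ran from -3.21 to -0.574 in the former, from -0.855 to 0.875 in Nanog SunTag and from 0.741 to 1.34 in Nanog/Otx2 SunTag libraries.

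Genes next to glycolysis were counted in the same tests, beside 21.3% of all genes lower and 20.2% higher on LIF withdrawal in Nanog SunTag cells and 25.2% and 24.6% in Nanog/Otx2 SunTag cells. Of 10 genes of the rest of pyruvate dehydrogenase and pyruvate entry, 5 fell and 2 rose on LIF withdrawal in Nanog SunTag cells and 5 fell and 0 rose in Nanog/Otx2 SunTag cells. Brp44l (Mpc1) and Brp44 (Mpc2), which form the mitochondrial pyruvate carrier, fell by 2.54 and 2.01 in the former and by 2.48 and 1.07 in the latter on the log2 scale. With Dox and no LIF Brp44l rose by 1.27 and 1.01 (adjusted p = 0.017 and 0.00067). Of 17 genes of the tricarboxylic acid cycle, 6 fell and 1 rose in Nanog SunTag cells and 7 fell and 1 rose in Nanog/Otx2 SunTag cells, with 0 called on Dox without LIF (3.6% and 11.2% of all genes were called higher and 1.54% and 6.15% lower).

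Of 8 pentose phosphate genes 1 rose and 0 fell, and 2 rose and 1 fell, and G6pdx, the first enzyme of that route, rose in both lines (1.14 and 0.62). Of 5 genes of gluconeogenesis and bypass 3 and 2 fell and 0 rose. One of them was 9630033F20Rik (Tigar), which lowers fructose-2,6-bisphosphate. It fell by 1.2 and 1.44 and rose with Dox without LIF by 0.91 and 0.78. Of 13 other glycolytic isozymes tested 5 fell and 0 rose, and 6 fell and 2 rose. Of 20 hypoxia-inducible genes outside glycolysis 6 fell and 0 rose, and 5 fell and 3 rose, and in long-term 44iN cells 4 of 19 were lower and 0 higher than in Tg2a cells (5.26% and 3.35% of all genes).

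Of 17 regulators of glycolytic genes tested and reported, 6 rose and 4 fell on LIF withdrawal in Nanog SunTag cells and 4 rose and 4 fell in Nanog/Otx2 SunTag cells. Esrrb, a nuclear receptor of naive cells, fell by 4.79 and 4.89 on the log2 scale, rose with Dox without LIF by 3.23 and 3.03, and was lower in long-term 44iN than in Tg2a cells (-1.62, adjusted p = 0.0049). Stat3, through which LIF signals, fell in both lines (-2.43 and -2.65), as did Epas1 (HIF-2 alpha, -1.66 and -1.65). Lin28b rose by 2.07 and 1.57, Lin28a by 1.0 and 0.87, Mlxip by 1.07 and 0.71 and Foxo1 by 0.95 and 0.77.

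Other regulators were called in 1 line or in neither, and differences between lines were not read from this. Hif1a rose in Nanog SunTag cells (0.79, adjusted p = 0.019) and was at 0.21 in Nanog/Otx2 SunTag cells (adjusted p = 0.14). Txnip, an inhibitor of glucose uptake, fell in Nanog SunTag cells (-0.98, adjusted p = 0.0048) and was at 0.06 in Nanog/Otx2 SunTag cells. Mlxipl rose in Nanog SunTag cells (0.81) and was at 0.82 in the other line (adjusted p = 0.1), and Sirt6 fell in Nanog/Otx2 SunTag cells (-0.77) and was at -0.73 in Nanog SunTag cells (adjusted p = 0.067). Myc (0.93 and 0.65), Mycn (0.52 and 0.14), Vhl (-0.59 and 0.02), Arnt (0.12 and 0.03), Nrf1 (0.25 and 0.12) and Ppargc1b (0.49 and 0.09) were not called in either line. Myc and Mycn were higher in long-term 44iN than in Tg2a cells (0.88 and 0.92, adjusted p = 0.031 and 0.027), where Txnip was lower (-0.91, adjusted p = 0.012).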

How the data were processed

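RNA-seq of mouse ES cells was taken from tables of the whole series. Per the labels and the study's methods, the authors made stranded TruSeq mRNA libraries, sequenced 65-base single ends and processed them with CASAVA 1.8, STAR and RSEM on mm9. The authors deposited estimated counts per gene, and a second table of the same counts divided by DESeq2 size factors, a signal here called normalised counts. Columns were matched to samples by the library code that ends each description, and libraries are numbered as in the titles, which differ from the column numbers in some libraries.

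Estimated counts were rounded and tested with edgeR 4.0.16 in R 4.3.3 (TMM, quasi-likelihood F-test, Benjamini-Hochberg adjustment over all genes tested, threshold 0.05), after dropping genes that had no condition with 10 or more normalised counts in all of its libraries. Standard errors are the log2 fold change over the root of F, and 95% intervals use the t distribution with the degrees of freedom of the test. Separate fits held the 11 Nanog SunTag, the 15 Nanog/Otx2 SunTag and all 26 SunTag libraries, and 44iN and Tg2a pairs of groups. All 32 members were named, and of other lists up to 4 called genes a comparison by size of change, and the regulators, of which 1 is not reported here. Members and lists (pathway genes, regulators, cell type markers) were chosen with earlier results of these data known. Promoters came from RefSeq (GRCm38.p6), gene coordinates are mm9. The fits were tested on simulated data.

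Libraries of 1 SunTag clone come from the same clonal line. The replicate block was the clone in Nanog SunTag cells and in the fit of both guides, so that numbers do not enter it, and the clone with its number in Nanog/Otx2 SunTag cells. Across conditions, the mean correlation of deviations from the group means within a block was 0.149 in Nanog SunTag cells (lowest -0.0581, and -0.143 between blocks) and 0.299 in Nanog/Otx2 SunTag cells (lowest 0.131, and -0.1 between blocks). Alternatives were DESeq2 1.42.0, its size factors in edgeR, other filters, the replicate block, leaving out each library and, added after seeing the data, a GC correction (98.9% of genes had a GC content) and blocks by column number in Nanog/Otx2 SunTag cells.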

Additional observations from a re-analysis of the deposited data

Results flagged for a closer look

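The difference of the Dox effect on Pfkp without and with LIF was 1.78 on the log2 scale in Nanog SunTag cells and 1.71 in Nanog/Otx2 SunTag cells by edgeR, each a test of the difference between conditions. Of 96 groups tested, a gene in a condition of 4 libraries each, 1 had a library that stood apart, that of Pdk2. It was at 175.2 normalised counts in Nanog/Otx2 SunTag C1-1 without LIF and with Dox, with the other libraries of its group at 162.3 to 163.7, a gap of 0.893 of the group's range. Chance alone gives about 1 such group in 20.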

How the results depend on the processing

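No called fold change reversed in the alternatives run, and the levels and their sum kept within the spread between replicates. In what follows the number is that of the 32 genes called, with the share of all genes called in brackets. With the replicate block, 11 (33.4%) were called on Dox without LIF and 16 (41.0%) with LIF in Nanog/Otx2 SunTag cells, 6 (21.8%) for the difference between these, 2 (5.89%) for the difference of the LIF effect between guides and 7 (13.3%) for 44iN cells with Dox, whose 2 numbered pairs share only a number. No other count moved by more than 1.5 times with the block. With blocks by column number, these were 22 (61.9%) on LIF withdrawal, 11 (34.6%) and 14 (41.8%) on Dox without and with LIF and 7 (21.3%) for the difference, all in Nanog/Otx2 SunTag cells. With GC correction and the replicate block, Nanog SunTag cells gave 2 (13.2%) on Dox without LIF, 3 (5.63%) with LIF, 2 (7.55%) for the difference and 12 (41.8%) for Dox in place of LIF. Nanog/Otx2 SunTag cells gave 22 (62.1%) on LIF withdrawal, 11 (37.1%) and 16 (40.9%) on Dox without and with LIF and 7 (22.4%) for the difference. It gave 3 (11.5%) for the LIF effect between guides and 6 (9.4%) for 44iN cells with Dox. GC correction alone gave 8 (22.8%) for long-term 44iN cells. DESeq2 gave 1 (3.76%) on Dox with LIF in Nanog SunTag cells and 1 (5.28%) for the LIF effect between guides, and no filter gave 2 (1.97%) for 44iN cells with Dox.

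Leaving out 1 library gave 8 to 13 calls on LIF withdrawal in Nanog SunTag cells (9 without C2-2 with LIF, 32.5% of all genes, and 9, 31.5%, without C1-2 and 8, 36.2%, without C2-1 lacking LIF) and 13 to 16 in Nanog/Otx2 SunTag cells. On Dox without LIF it gave 1 and 3 to 6, and with LIF 0 to 1 (1 without C1-1 of the uninduced cells, 0.9%) and 4 to 9. The difference of these gave 0 to 3 in Nanog SunTag cells (3 without C1-1 with LIF, 3.05%, and 0 without C1-1 with LIF and Dox, 0.689%) and 1 to 3 in Nanog/Otx2 SunTag cells (3 without C2-1 with LIF, 11.7%, and 2 without C1-2 or C2-1 with LIF and Dox, 9.34% and 6.83%). Dox in place of LIF gave 4 to 10 (4 without C2-1 with LIF or C1-1b with Dox alone, 18.9% and 16.9%). The differences between guides gave 0 for Dox and 0 to 5 for LIF (5 without Nanog SunTag C1-1 with LIF, 14.5%). The 44iN comparison gave 0 to 10 (10 without replicate 1 with Dox, 22.6%) and the long-term one 0 to 7 (0 without either 44iN library or Tg2a replicate 2, 0.125% to 1.83%, and 7 without Tg2a replicate 3, 17.4%). A lone library left in a group was assumed to vary like the others. The cause of these shifts was not tested, beyond the fewer samples in each.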
